A study of Mus musculus with 4 samples.

Results

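The germline and meiosis genes described here are 50 genes named for their work in germ cells, from the regulators that set germ cell identity to the proteins that pair and recombine chromosomes in meiosis and the piRNA proteins that silence transposons. A member was taken as a probe set whose single gene symbol in the array annotation was one of these 50 names. There were 49 such probe sets among 41345 on the array, 1 for each of 49 genes. The exception was Sycp3, whose probe set is shared with Chpt1 and cannot be assigned to either gene.

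The cells were P19, a mouse embryonal carcinoma line, and there was 1 array for each of 4 conditions. The Ctcfl line is a P19 clone with stably integrated pBI-EGFP-FLAG-mCtcfl and pTA-N vectors, in which Ctcfl is held off by doxycycline (Tet-Off). It was measured after 4 days in 10 µM retinoic acid and undifferentiated in ethanol vehicle, each time after 2 days without doxycycline. Wild-type P19 cells were measured in the same 2 states. For wild-type cells the labels conflict: the sample characteristics list 2 µg/ml doxycycline, and the growth description gives ordinary medium. The Ctcfl line is 1 clone, so Ctcfl, the vectors, clonal origin and doxycycline cannot be told apart. With 1 array a condition, differences between single arrays carry no test. Tests come from a limma fit across all genes that adds an effect of retinoic acid and an effect of the line, and in which the unequal response of the lines serves as error.

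Germ cells arise in the early embryo, where Prdm1 switches off the somatic programme of their precursors. Retinoic acid later induces Stra8, which acts at the start of meiosis in the fetal ovary and in the testis after birth. Chromosomes are then held by a meiosis-specific cohesin, assembled on an axis, joined by the synaptonemal complex and recombined after breaks made by Spo11. In the male germ line, Piwi proteins and Tudor-domain proteins gather in granules called nuage and silence transposons with piRNAs. In other cells most of these genes are off, and in pluripotent cells a Polycomb complex containing Mga, Max, E2f6, L3mbtl2 and Pcgf6, together with DNA methylation, keeps many of them off. Ctcfl, the transgene of this line, is itself normally active in the testis and is related to Ctcf, the insulator protein of all cells.

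Ctcfl had log2 signals of 9.56 in the Ctcfl line and 7.13 in wild-type cells in retinoic acid, and 10.41 in the Ctcfl line and 7.86 in wild-type cells when undifferentiated. It was 5.60-fold higher with the line in limma (log2 2.49 ± 0.15, SE, adjusted p = 0.00645), while for Ctcf the effect was log2 0.15 (adjusted p = 0.784). Of 13 markers of the P19 state, 12 passed the filter described below, and 0 rose and 7 fell with retinoic acid in limma (4.21% and 2.44% of all genes). Sox2 lay between log2 11.58 and 12.05 on the 4 arrays and did not pass (adjusted p = 0.27 in limma). Zfp42 lay between 6.12 and 6.46 and Dppa5a between 5.58 and 5.90, both low. The pluripotency factor Pou5f1 fell 2.99-fold with retinoic acid, and Rarb, a receptor gene that retinoic acid induces, rose 10.1-fold (adjusted p = 0.00743 and 0.000402 in limma). The Rarb fold is not exact, because its undifferentiated signals, 6.54 in the Ctcfl line and 6.63 in wild-type cells, were within the background described next. Olfactory receptor genes, which these cells are not expected to transcribe, served as a guide to background. The 95th percentile of 1105 such genes lay between log2 6.82 and 6.95 on the arrays, and 21.9% of them had a signal of at least log2 6 on 1 or more arrays, the limit of the filter used before testing. Probe sets differ in brightness, so signals are compared between arrays and not between genes.

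Most germline and meiosis genes had low signals in all 4 conditions, and 29 of 49 stayed at or below the olfactory receptor percentile on every array. Of the 49 members, 37 passed the filter (75.5%, against 82.6% of all 22180 genes), and 18 had a mean signal above the 95th percentile of the olfactory receptor means, log2 6.84. On single arrays, 15 members were above that percentile in the Ctcfl line and 12 in wild-type cells in retinoic acid, and 16 in the Ctcfl line and 16 in wild-type cells when undifferentiated. The 12 members below the filter were Dazl, Ddx4, Sycp1, Sycp2, Mael, Hormad1, Meioc, Meiob, Tex11, Tex12, Taf7l and Asz1. Dazl, an RNA-binding protein required for germ cell development, had signals of 5.25 in the Ctcfl line and 5.13 in wild-type cells in retinoic acid, and 5.17 and 5.21 in the same line order when undifferentiated. Ddx4, the germ cell RNA helicase also called Vasa, had 5.28 in the Ctcfl line and 5.31 in wild-type cells in retinoic acid, and 5.31 and 5.52 undifferentiated. Neither gene reached the filter on any array, including those where Ctcfl was high. The members nearest to the limit were Hormad2 and Tdrd12 inside it, with highest signals of 6.14 and 6.15, and Ddx4 and Sycp1 outside it, with highest signals of 5.52 and 5.51. The probe set shared by Sycp3 and Chpt1 had 5.40 in the Ctcfl line and 5.36 in wild-type cells in retinoic acid, and 5.82 and 6.31 undifferentiated.

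**Figure D1:**
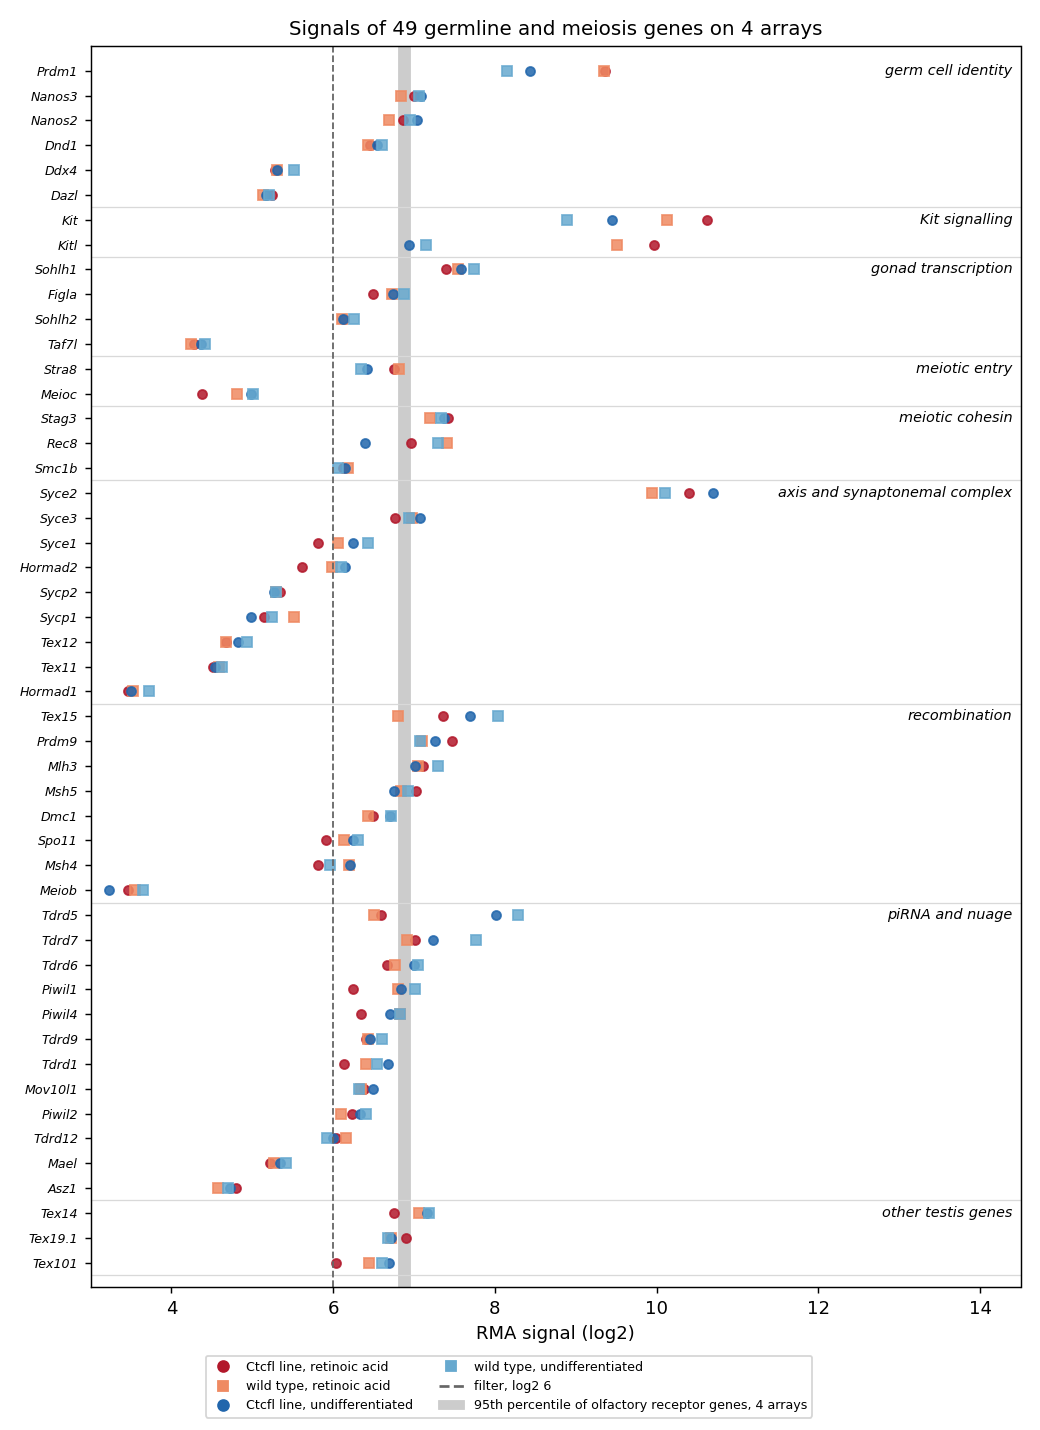
RMA signals (log2, x axis) of the 49 members, grouped by role, with 1 point for each of the 4 arrays; the dashed line is the filter at log2 6 and the grey band the range over arrays of the 95th percentile of olfactory receptor genes. Most members lie left of or inside the band with their 4 points close together, and Kit, Kitl, Prdm1 and Tdrd5 have their retinoic acid points apart from their undifferentiated points.

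Retinoic acid changed 4 of the 37 members tested. Kitl, Kit and Prdm1 rose and Tdrd5 fell. The share of members higher was 8.11% and the share lower 2.7%, where 4.21% of all 18310 genes tested rose and 2.44% fell in the same fit. In either direction it was 10.8% of members and 6.65% of all genes. At an unadjusted p of 0.05, 9 members passed, which was 24.3% beside 23.5% of all genes. In cultures measured as a whole, more cells of a type and more RNA in each cell cannot be told apart.

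Kitl and Kit, a ligand and its receptor tyrosine kinase, had the largest increases. Stem cell factor, the product of Kitl, keeps migrating germ cells, melanoblasts and blood progenitors alive through Kit. Kitl had log2 signals of 9.97 in the Ctcfl line and 9.51 in wild-type cells in retinoic acid, against 6.94 in the Ctcfl line and 7.15 in wild-type cells without it. Both retinoic acid arrays were far above both undifferentiated arrays, whose signals were close to the olfactory receptor percentile, so that the fold is not exact. The rise in limma was 6.48-fold, or log2 2.70 with an SE of 0.20 (adjusted p = 0.0013). Kit had 10.63 in the Ctcfl line and 10.13 in wild-type cells in retinoic acid, against 9.45 in the Ctcfl line and 8.90 in wild-type cells without it. The rise was 2.30-fold, or log2 1.20 with an SE of 0.15 (adjusted p = 0.00778 in limma), and was log2 1.18 in the Ctcfl line and 1.23 in wild-type cells. The 2 states did not overlap for either gene. The share of all genes without overlap was not counted, so this is no separate support.

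Prdm1, a zinc finger repressor that specifies primordial germ cells and also acts in endoderm and other embryonic tissues, rose 2.09-fold, which is log2 1.06 with an SE of 0.16 (adjusted p = 0.0138 in limma). Its signals were 9.36 in the Ctcfl line and 9.35 in wild-type cells in retinoic acid, against 8.43 in the Ctcfl line and 8.15 in wild-type cells without it. The retinoic acid signals were nearly equal in the lines. The other regulators of germ cell identity did not pass. Nanos2 and Nanos3, RNA-binding proteins of male and migrating germ cells, had retinoic acid effects of log2 -0.21 and -0.16, and Dnd1, which acts with Nanos2 on messenger RNAs, had -0.13.

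Tdrd5, a Tudor-domain protein of the nuage needed for transposon silencing in spermatogenesis, was the member that fell. Its signals were 6.59 in the Ctcfl line and 6.50 in wild-type cells in retinoic acid, against 8.01 in the Ctcfl line and 8.29 in wild-type cells without it. Retinoic acid brought it below the olfactory receptor percentile in both lines. In limma it fell 3.04-fold (log2 -1.61 ± 0.16, SE, adjusted p = 0.00434), a fold that rests on signals near background and is therefore not exact.

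The sequences before the starts of these 4 genes are shown because they are the members that changed, as 250 bases up to the base before a transcript start listed by RefSeq on GRCm38.p6, 5′ to 3′. Capitals mark matches, on either strand, to GCGGGA (the core of an E2F6 site) and CACGTG (an E-box). They also mark GGTCA repeated after 5 bases, and the core of the motif of CTCF and CTCFL. Overlapping matches were allowed.
Kitl, chr10:100015571-100015820, plus strand: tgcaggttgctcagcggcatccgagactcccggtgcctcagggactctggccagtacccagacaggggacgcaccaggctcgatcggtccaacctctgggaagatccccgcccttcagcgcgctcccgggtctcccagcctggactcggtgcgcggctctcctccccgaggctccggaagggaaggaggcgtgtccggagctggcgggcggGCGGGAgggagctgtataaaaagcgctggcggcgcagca
Kit, chr5:75574737-75574986, plus strand: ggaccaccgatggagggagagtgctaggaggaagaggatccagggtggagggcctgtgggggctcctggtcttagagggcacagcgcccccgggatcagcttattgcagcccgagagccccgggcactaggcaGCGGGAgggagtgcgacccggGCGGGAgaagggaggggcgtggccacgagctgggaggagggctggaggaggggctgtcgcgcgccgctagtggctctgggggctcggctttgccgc
Prdm1, chr10:44458749-44458998, minus strand: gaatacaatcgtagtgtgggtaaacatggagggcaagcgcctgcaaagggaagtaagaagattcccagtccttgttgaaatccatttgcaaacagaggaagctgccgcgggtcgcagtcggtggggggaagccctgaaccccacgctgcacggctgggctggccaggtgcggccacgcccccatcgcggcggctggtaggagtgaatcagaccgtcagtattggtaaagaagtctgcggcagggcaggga
Tdrd5, chr1:156303349-156303598, minus strand: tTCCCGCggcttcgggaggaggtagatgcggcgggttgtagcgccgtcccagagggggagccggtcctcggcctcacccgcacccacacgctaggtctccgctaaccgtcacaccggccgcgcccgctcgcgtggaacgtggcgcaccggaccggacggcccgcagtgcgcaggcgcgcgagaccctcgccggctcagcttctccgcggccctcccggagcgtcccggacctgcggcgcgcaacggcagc
Kitl and Tdrd5 each held 1 match and Kit held 2, all of them to the E2F6 core, and Prdm1 held 0. The GGTCA repeat was found in 0 of 43 member genes with a listed promoter and in 0.0703% of 27018 genes. It is not the retinoic acid response element known as direct repeat 5, whose repeated unit is 1 base longer. That element was not searched. Absence from this window says only that these letters are not there.

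The meiotic entry gene Stra8, whose name stands for stimulated by retinoic acid, was higher by a smaller amount and did not pass. Its signals were 6.75 in the Ctcfl line and 6.82 in wild-type cells in retinoic acid, against 6.42 in the Ctcfl line and 6.35 in wild-type cells without it. Both retinoic acid signals were above both undifferentiated ones, though how many of all genes separated in this way was not counted. None of the 4 signals exceeded the olfactory receptor percentile of its array. The effect was log2 0.40 ± 0.15 (SE, adjusted p = 0.175 in limma), and Stra8 was among the 9 members past an unadjusted p of 0.05. Meioc, which keeps germ cells in the meiotic programme, was below the filter. The window before the Stra8 start is shown because this gene is the known retinoic acid target of the group. It held 0 matches to the letters searched, which did not include the retinoic acid response element.
Stra8, chr6:34920698-34920947, plus strand: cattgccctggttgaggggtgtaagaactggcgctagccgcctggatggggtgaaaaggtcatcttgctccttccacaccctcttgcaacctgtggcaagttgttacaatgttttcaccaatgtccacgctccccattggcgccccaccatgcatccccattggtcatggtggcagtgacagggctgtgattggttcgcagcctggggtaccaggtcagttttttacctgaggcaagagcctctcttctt

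Among the meiotic cohesin subunits, Rec8, the kleisin that retinoic acid induces in germ cells, had signals of 6.96 in the Ctcfl line and 7.41 in wild-type cells in retinoic acid, against 6.40 in the Ctcfl line and 7.30 in wild-type cells without it. It differed by log2 0.56 in the Ctcfl line and 0.11 in wild-type cells, with an effect of log2 0.34 (adjusted p = 0.29 in limma), and the lowest of these signals, that of the undifferentiated Ctcfl line, was below the olfactory receptor percentile. Stag3 and Smc1b, the other subunits, had effects of log2 -0.04 and 0.05.

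Of the axis and synaptonemal complex genes, 4 of 9 with a value passed the filter. In limma 0 changed with retinoic acid, beside 6.65% of all genes (1, Syce1, at an unadjusted p of 0.05, beside 23.5%). These genes are too few to tell 0 from that share. Syce2, a central element protein of the synaptonemal complex, was the one with clear signal on every array: 10.40 in the Ctcfl line and 9.94 in wild-type cells in retinoic acid, against 10.69 in the Ctcfl line and 10.11 in wild-type cells without it. Its effect was log2 -0.23 (adjusted p = 0.395 in limma). Syce1, another central element gene, had an effect of log2 -0.41 (adjusted p = 0.164 in limma) at signals below the olfactory receptor percentile on all 4 arrays. Syce3 had -0.14.

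Of 8 recombination genes, 7 passed the filter. With retinoic acid 0 changed in limma, beside 6.65% of all genes (1, Tex15, at an unadjusted p of 0.05, beside 23.5%). Here too the genes are too few to tell 0 from that share. Tex15, a germ cell protein required for repair of meiotic breaks and for transposon silencing, had signals of 7.36 in the Ctcfl line and 6.80 in wild-type cells in retinoic acid, against 7.70 in the Ctcfl line and 8.04 in wild-type cells without it. Its retinoic acid differences were log2 -0.34 in the Ctcfl line and -1.24 in wild-type cells, where the retinoic acid signal was below the olfactory receptor percentile. The effect in limma was log2 -0.79 ± 0.23 (SE, adjusted p = 0.104). Prdm9, the methyltransferase that places meiotic breaks, had signals between 7.08 and 7.47 and an effect of log2 0.12. The mismatch repair homologs Msh5, Msh4 and Mlh3, which act on crossovers, had effects of log2 0.09, -0.08 and -0.07.

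Of 12 piRNA and nuage genes, 10 passed the filter, 0 rose and 1, Tdrd5, fell, beside 4.21% and 2.44% of all genes. Tdrd7, which also works in the lens, had signals of 7.01 in the Ctcfl line and 6.91 in wild-type cells in retinoic acid, against 7.23 in the Ctcfl line and 7.77 in wild-type cells without it. Its effect of log2 -0.54 did not pass (adjusted p = 0.162 in limma). The Piwi genes Piwil1, Piwil2 and Piwil4, which bind piRNAs, had effects of log2 -0.40, -0.21 and -0.18, and Tdrd6 and Tdrd1, which bind Piwi proteins, had -0.31 and -0.34. None of these 5 passed. Piwil2, Piwil4 and Tdrd1 exceeded the olfactory receptor percentile on 0 arrays, Piwil1 on 1 and Tdrd6 on 2, so these sizes are not exact. Of the 10 genes, 7 (70%) were lower in both lines, beside 39.7% of all genes, and most of the 10 had signals within background.

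Among the remaining genes, Sohlh1, a transcription factor of spermatogonia and oocytes, had signals between 7.39 and 7.75 and an effect of log2 -0.20. Tex14, which keeps the bridges between germ cells open, had -0.27, and Tex101, a germ cell surface protein, had -0.41. Across the 37 members the median difference was log2 -0.16 in the Ctcfl line and -0.15 in wild-type cells, where all genes had medians of -0.05 and -0.04. The members were lower in both lines in 20 cases (54.1%) and higher in both in 8 (21.6%), beside 39.7% and 29.3% of all genes. In single arrays 5 members were at least 2-fold apart: in the Ctcfl line Kit and Kitl were higher and Tdrd5 lower, and in wild-type cells Kit, Kitl and Prdm1 were higher and Tdrd5 and Tex15 lower. Background shares were 3.21% higher and 1.5% lower in the Ctcfl line, and 2.58% higher and 2.62% lower in wild-type cells.

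**Figure D2:**
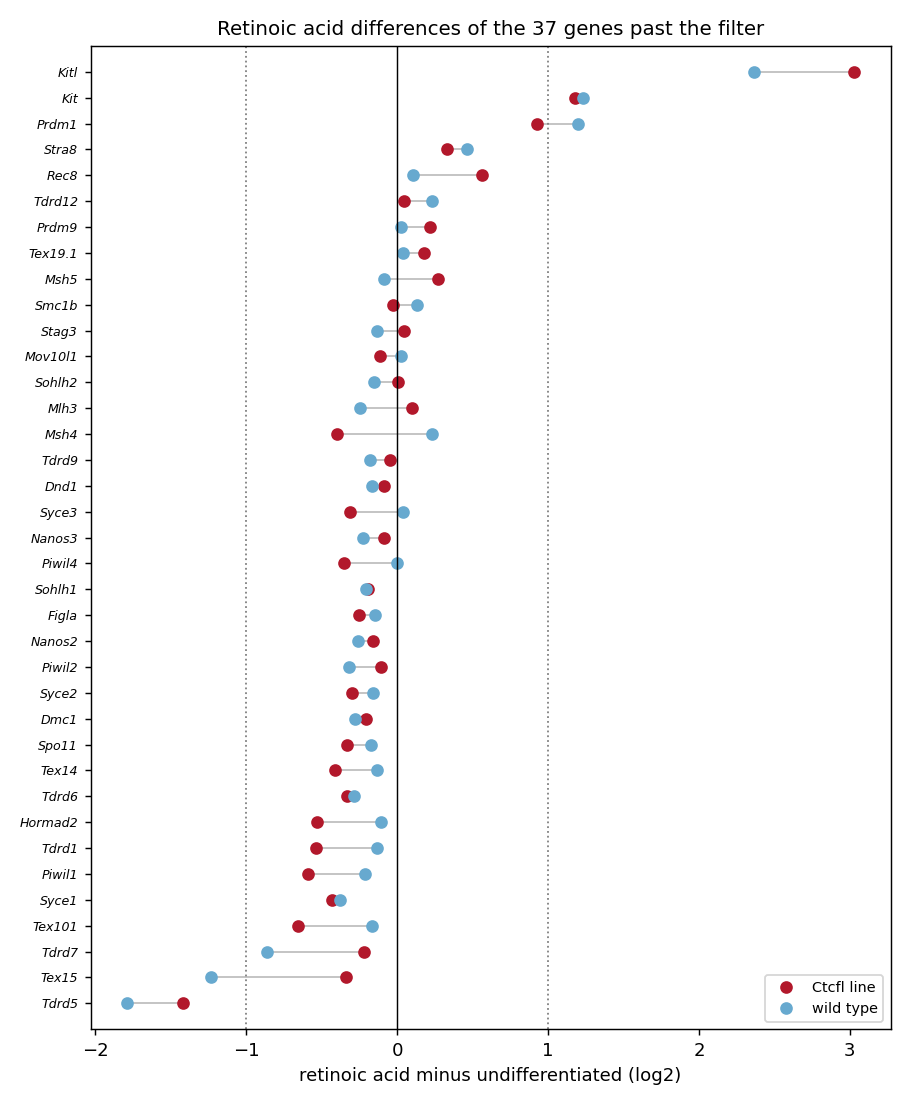
Log2 differences, retinoic acid minus undifferentiated (x axis), of the 37 members past the filter, with 1 point for the Ctcfl line and 1 for wild-type cells joined by a line; dotted lines mark 2-fold. Kitl, Kit and Prdm1 lie at the top and Tdrd5 at the bottom in both lines, and most other members lie within the dotted lines and to the left of 0.

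The line comparison asks whether germline genes differed when the testis gene Ctcfl was high. In limma 0 of the 37 members changed with the line, where 5 of 18310 genes rose and 3 fell (0.0273% and 0.0164%, or 0.0437% in all). At an unadjusted p of 0.05, 3 members passed, Rec8, Syce2 and Kit (8.11%, beside 9.81% of all genes). In single arrays 0 members reached a 2-fold difference, where the background was 0.83% higher and 0.399% lower in retinoic acid, and 0.726% higher and 1.09% lower when undifferentiated. The differences of members lay between log2 -0.55 and 0.56 in retinoic acid and between -0.90 and 0.59 when undifferentiated, with medians of 0.01 and -0.03 beside -0.02 for all genes in both states. The median in retinoic acid was -0.03 with no filter and -0.0038 after quantile normalization, so it has no settled sign.

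Rec8 was the member with the largest line difference and was lower in the Ctcfl line. Its signal was 6.96 in the Ctcfl line against 7.41 in wild-type cells in retinoic acid, and 6.40 against 7.30 when undifferentiated. The line effect was log2 -0.67 ± 0.17 (SE, adjusted p = 0.36 in limma), and its size is not exact because the undifferentiated signal of the Ctcfl line was below the olfactory receptor percentile. Syce2 was 1.43-fold higher (log2 0.52 ± 0.15, SE, adjusted p = 0.38 in limma), with 10.40 in the Ctcfl line against 9.94 in wild-type cells in retinoic acid and 10.69 against 10.11 undifferentiated. Kit was 1.44-fold higher (log2 0.53, adjusted p = 0.377 in limma), by log2 0.50 in retinoic acid and 0.55 undifferentiated. Each of these 3 genes had the same direction in both states. The fit that picked them takes disagreement between the states as its error, so this is no separate support. The piRNA genes Piwil1 and Piwil4 were lower in both states, with effects of log2 -0.36 and -0.30 that did not pass. Their sizes are not exact, since Piwil1 exceeded the olfactory receptor percentile on 1 array and Piwil4 on 0. The difference between the lines' responses to retinoic acid was below 2-fold for all 37 members. As measured it was highest for Tex15, at log2 0.90, and lowest for Msh4, at -0.63, while 1.9% of all genes lay 2-fold or more above 0 and 0.754% 2-fold or more below. These sizes are not exact, since Msh4 was below the olfactory receptor percentile on all 4 arrays and Tex15 below it in wild-type cells in retinoic acid.

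**Figure D3:**
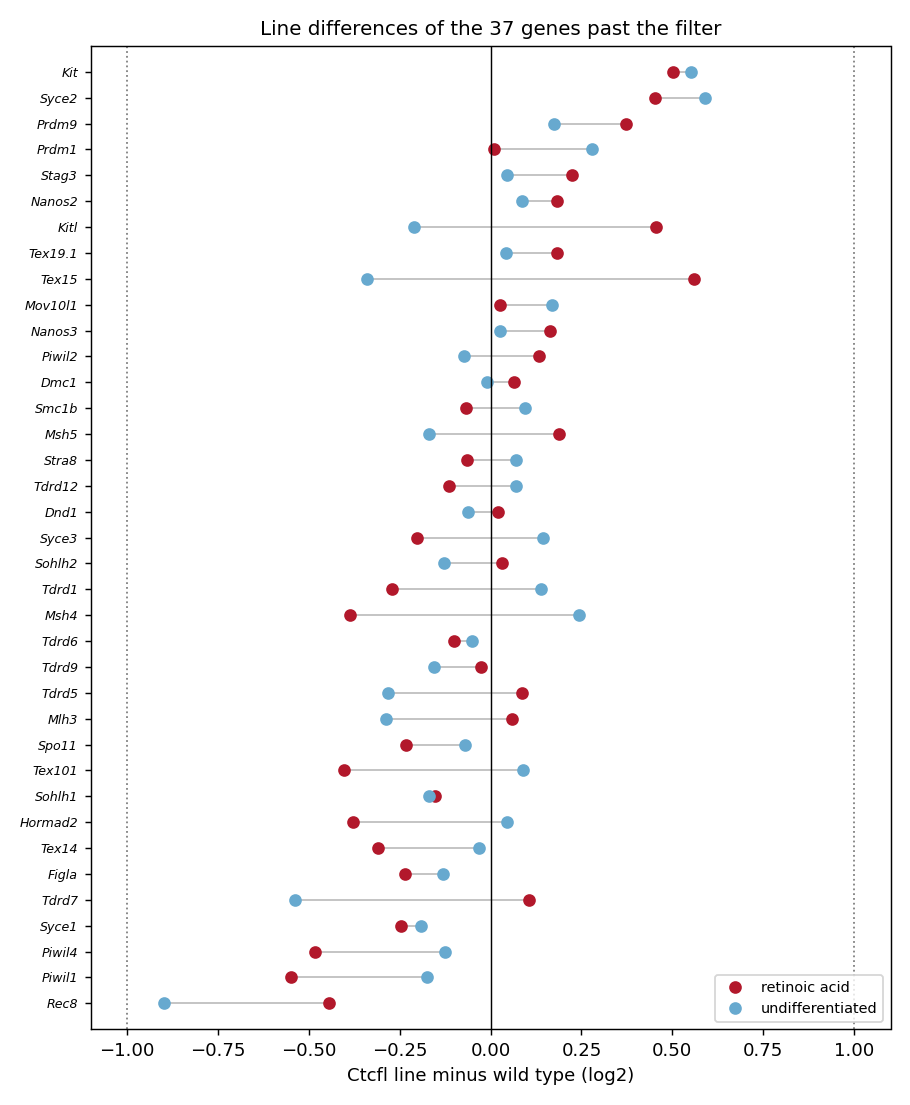
Log2 differences, Ctcfl line minus wild type (x axis), of the 37 members past the filter, with 1 point in retinoic acid and 1 in undifferentiated cells joined by a line; dotted lines mark 2-fold. No member reaches 2-fold, and Rec8 at the bottom and Kit and Syce2 at the top have both points on 1 side of 0.

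Other genes of the germ line were read from lists beside the members. Of 14 primordial germ cell genes past the filter, 4 rose with retinoic acid and 0 fell, and for this and the following lists the shares of all genes were 4.21% higher and 2.44% lower. Besides Prdm1 and Kit these were Ifitm3, a membrane protein of germ cell precursors and of antiviral defence, which rose 1.96-fold, and Alpl, the alkaline phosphatase of primordial germ cells and of pluripotent cells, which rose 1.89-fold (adjusted p = 0.0164 and 0.0479 in limma). Dppa3, also called Stella and a defining marker of these cells, was below the filter with signals between 5.41 and 5.48, and Prdm14 had an effect of log2 -0.07. Tfap2c, also of this list, had signals between 7.14 and 7.99 and an effect of log2 0.02. Of 15 genes of spermatogonia, 3 rose and 1 fell. Gfra1, the GDNF receptor, rose 5.28-fold, Lhx1, a homeobox gene also of the intermediate mesoderm, 3.92-fold, and Zbtb16, a zinc finger repressor of stem cell spermatogonia and of Hox patterning, 3.60-fold (adjusted p = 0.000814, 0.00147 and 0.00199 in limma). Etv5, a target of FGF and GDNF signals, fell 2.68-fold (adjusted p = 0.00486 in limma). Of 11 further piRNA genes, 2 rose, Mybl1, the transcription factor of meiotic piRNA genes in the testis, 2.52-fold, and Tdrkh, a mitochondrial Tudor protein, 1.82-fold (adjusted p = 0.04 and 0.0224 in limma). Of 16 further meiosis genes, 13 spermatid genes and 10 oocyte genes past the filter, 0 in each list changed with retinoic acid in limma, and 3 of the meiosis genes, 0 of the spermatid genes and 1 of the oocyte genes passed an unadjusted p of 0.05, beside 23.5% of all genes. With the line 0 genes of these 6 lists changed in limma. At an unadjusted p of 0.05 the most were 5 of the 15 genes of spermatogonia, beside 9.81% of all genes. Next were 3 of the 14 primordial germ cell genes, with Tfap2c and Kit higher and Ifitm3 lower in the Ctcfl line.

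Dmrt1, a regulator of the testis and of spermatogonia, and Ret, the signalling partner of Gfra1, were chosen after their values were seen because they differed between the lines in retinoic acid. Dmrt1 had 8.87 in the Ctcfl line against 7.65 in wild-type cells there, and 7.84 against 7.46 undifferentiated (line effect adjusted p = 0.377 in limma). Ret had 7.89 in the Ctcfl line against 9.27 in wild-type cells in retinoic acid, and 7.81 against 7.86 undifferentiated (adjusted p = 0.506 in limma).

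Markers of other cells that make or respond to stem cell factor were read beside Kit and Kitl. Of 13 Sertoli and Leydig cell genes, 9 passed the filter, and Sox9 and Wt1, which also mark other embryonic tissues, rose 2.95-fold and 1.81-fold with retinoic acid (adjusted p = 0.0152 and 0.0381 in limma). The summed linear signal of the 11 genes with a value was 2442 in the Ctcfl line and 2929 in wild-type cells in retinoic acid, against 1635 in the Ctcfl line and 2033 in wild-type cells without it. Sox9 carried most of this difference, and the other 10 genes summed to 1409 in the Ctcfl line and 1520 in wild-type cells in retinoic acid, against 1382 in the Ctcfl line and 1373 in wild-type cells without it. Of their defining markers, Amh lay between log2 7.26 and 7.48 and Fshr between 5.45 and 5.61. Of 9 genes of melanocytes and blood cells, 6 passed the filter and 0 changed with retinoic acid in limma (2 at an unadjusted p of 0.05). The melanocyte enzyme Tyr lay between 4.97 and 5.55 and the leukocyte antigen Ptprc between 5.28 and 5.59. Mitf, Pmel, Gata2 and Tal1 of the same list were above the olfactory receptor percentile on every array. Pmel lay between 7.85 and 8.82 and Gata2 between 7.45 and 8.44. The remaining genes of the list, Dct, Cpa3 and Runx1, were below that percentile on every array. Their summed signal was 1171 in the Ctcfl line and 1143 in wild-type cells in retinoic acid, against 1241 and 1490 in the same line order without it. The part of other cell types in the rise of Kit and Kitl was not tested.

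**Figure D4:**
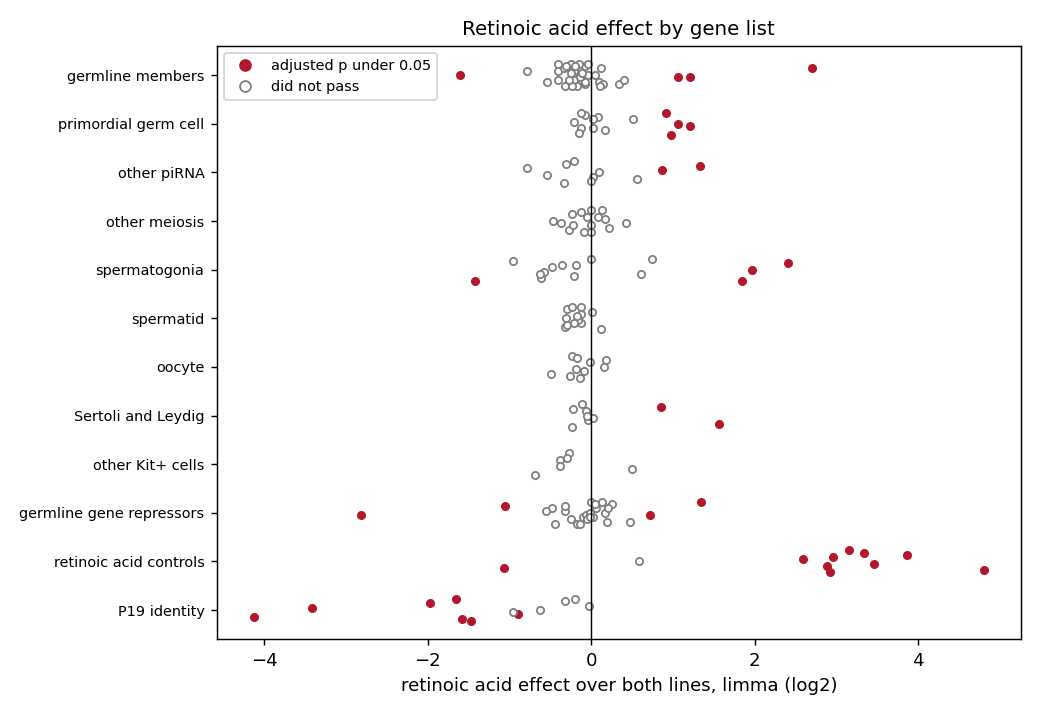
Retinoic acid effect over both lines from limma (log2, x axis) for each gene past the filter in the germline members and 11 other lists; filled points had an adjusted p under 0.05. Most retinoic acid controls lie to the right and most P19 identity genes to the left, while meiosis, spermatid and oocyte genes cluster near 0 with no filled point.

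A further list of 27 genes held repressors of germline genes together with enzymes that act on DNA methylation, Tet1 and Tet2 among them. All were above the filter, and 2 rose and 2 fell with retinoic acid in limma (4.21% and 2.44% of all genes). With the line 0 changed, also at an unadjusted p of 0.05. The DNA methyltransferase Dnmt3b fell 7.04-fold, with 9.07 in the Ctcfl line and 9.03 in wild-type cells in retinoic acid against 11.94 and 11.79 in the same line order without it (adjusted p = 0.000529 in limma). Its cofactor Dnmt3l fell 2.07-fold (adjusted p = 0.0133 in limma). Tet2, which oxidises methylated cytosine, rose 2.53-fold and Yaf2, a subunit of a variant Polycomb complex, 1.65-fold (adjusted p = 0.0119 and 0.0392 in limma). The 5 genes named at the start for the Polycomb complex that represses germline genes did not pass. Their retinoic acid effects were log2 -0.06 for Mga, -0.17 for Max, 0.19 for E2f6, -0.48 for L3mbtl2 and -0.31 for Pcgf6. These 5 are only part of the complex, to which Yaf2 can also belong.

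RefSeq promoters were listed for 43 of the 50 genes. An E-box was found in 32.6% of these genes and an E2F6 core in 39.5%, where 6.86% and 18.8% of 27018 genes held them. The 10 genes below the filter that had a promoter held an E-box in 6 cases, an E2F6 core in 5 and both in 4 (Ddx4, Hormad1, Mael and Tex12). Of the 32 genes past the filter, 7 held an E-box, 11 an E2F6 core and 1, Syce2, both. The core of the CTCF and CTCFL motif was found before Dazl, Asz1 and Sycp2, all below the filter on every array, and before 0 of the 32 genes past it, beside 2.41% of all genes. The ratio of observed to expected CpG dinucleotides had a median of 0.843 in the genes below the filter and 0.635 in those past it, beside 0.403 in all genes. These are descriptions of letters, and 10 genes are few. Ddx4 and Syce2 are shown because both held an E-box and an E2F6 core, in capitals, yet one was below the filter on every array and the other had clear signal on every array. For Syce2 the second of 2 listed starts is shown.
Ddx4, chr13:112652311-112652560, minus strand: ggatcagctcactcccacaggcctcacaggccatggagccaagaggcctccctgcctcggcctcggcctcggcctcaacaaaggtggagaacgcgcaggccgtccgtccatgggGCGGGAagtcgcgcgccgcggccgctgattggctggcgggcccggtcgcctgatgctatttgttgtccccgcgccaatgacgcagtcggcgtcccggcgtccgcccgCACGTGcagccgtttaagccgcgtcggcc
Syce2, chr8:84872008-84872257, plus strand: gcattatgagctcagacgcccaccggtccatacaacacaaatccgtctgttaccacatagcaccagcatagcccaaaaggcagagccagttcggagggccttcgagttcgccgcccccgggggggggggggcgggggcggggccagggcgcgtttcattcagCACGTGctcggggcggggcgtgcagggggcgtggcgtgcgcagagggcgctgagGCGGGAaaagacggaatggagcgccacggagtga

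**Figure D5:**
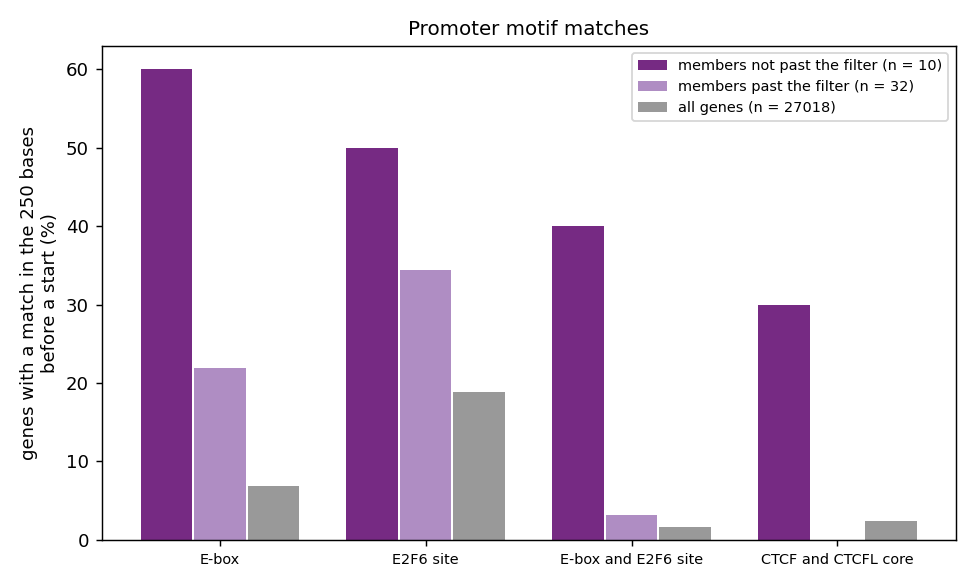
Share of genes (%, y axis) with a match in the 250 bases before a listed start, for 10 members not past the filter, 32 members past it and 27018 genes in all. The E-box and the pair of E-box and E2F6 core were most frequent in the members not past the filter, at 60% and 40%.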

How the data were processed

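Biotin-labelled targets made from total RNA of 4 P19 samples were measured on Affymetrix arrays, and the number of arrays limits the precision. The authors deposited RMA expression values on the log2 scale, computed with Affymetrix Expression Console, per the labels. The submitters' processing notes list Transcriptome Analysis Console too. Tool versions and the build are not given in the sources used here. Where a gene had several probe sets with 1 symbol, the one of highest mean was used, and genes whose highest signal was below log2 6 were left out. Log2 differences of single arrays were counted at 2-fold. Effects came from limma 3.58.1 in R 4.3.3 (lmFit, eBayes, additive terms, 1 residual and 5.49 prior degrees of freedom), two-sided, with Benjamini-Hochberg adjustment over 18310 genes and a threshold of 0.05. Nothing shows separate cultures. The p-values rest on the unequal response of the lines, drawn together over all genes by the prior, and do not measure the spread between cultures. Folds are powers of 2 of these differences. The fit was run on simulated data with equal noise for all genes and no unequal response of the lines built in. That run checks the code and not the p-values given here.

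The members and lists were chosen with earlier results of these data known. Named genes were those called, at least 2-fold apart, above the olfactory receptor percentile or among the 5 highest or lowest members of a comparison, with Stra8, Rec8, Dazl, Ddx4, Sycp3, Kit and Kitl. Of each further list up to 4 genes were named by size of effect, and some others were added. Some listed genes had no single-symbol probe set and were not analysed here. Promoters were matched by symbol to RefSeq on GRCm38.p6. Alternatives tried were quantile normalization, no filter and a filter at log2 7, the mean of probe sets, every probe set as a feature, a variance prior that follows the mean, fold limits of 1.5 and 3, and a 2-fold limit on limma calls.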

Additional observations from a re-analysis of the deposited data

Results flagged for a closer look

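Tex15 was singled out because its line difference took opposite directions in the 2 states, each larger than the technical spread. It differed by log2 0.56 in retinoic acid and -0.34 in undifferentiated cells (Ctcfl line minus wild type). The SD between probe sets of 1 gene was 0.226 in retinoic acid and 0.262 in undifferentiated cells, over 874 genes with several. The difference between the states was not tested, since each rests on single arrays. In wild-type cells in retinoic acid the Tex15 signal, 6.80, was below the olfactory receptor percentile of 6.89, so the size there is not exact. The share of all genes with opposite directions was not counted, so the counts given here are not a result about the members. Opposite directions were also measured for 17 other members, each with 1 or both differences within that spread. Among them Tdrd7 differed by log2 0.11 in retinoic acid and -0.54 in undifferentiated cells, and Msh4 by -0.39 and 0.24 in the same order of states.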

How the results depend on the processing

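Of 275 values recomputed under the 9 alternatives, 22 counts moved. Effects of single genes were recomputed only for Kitl, Kit, Prdm1, Tdrd5, Stra8, Rec8, Tex15 and Syce2. Each of these kept its direction and its side of the threshold wherever it was fitted. Calls of other genes were not rechecked one by one, among them calls near the threshold such as Alpl (adjusted p = 0.0479 in limma). All 50 medians moved by less than the SD between probe sets, but 6 near 0 changed sign. That SD is of single genes and is a wide limit for a median over many genes, so staying within it shows no stability. The member median of the difference of responses was log2 -0.05, but 0.06 with no filter and 0.14 with a filter at log2 7. The member median for the line in retinoic acid was 0.01, but -0.03 with no filter and -0.0038 after quantile normalization. For all genes these 2 medians were -0.01 and -0.02, but 0.0082 and 0.0025 with a filter at log2 7. Under every alternative fit, Kitl, Kit, Prdm1 and Tdrd5 passed with retinoic acid and 0 members changed with the line. A filter at log2 7 left 19 of the 37 members. For the line, quantile normalization gave 14 genes higher and 9 lower in place of 5 and 3, and a prior that follows the mean gave 9 and 6; the cause was not tested. A 2-fold limit on the limma calls left 416 genes higher and 256 lower with retinoic acid in place of 770 and 447, by construction. By construction too, a fold limit of 1.5 put 6 members apart with retinoic acid in the Ctcfl line, 2 between the lines when undifferentiated and 4 in the difference of responses, and a limit of 3 left 1 apart with retinoic acid in the Ctcfl line and 2 in wild-type cells. The line term in limma already sets retinoic acid against undifferentiated cells within each line. No paired analysis by replicate number was possible because each condition has 1 array. Signal over background limits what can be read for the members, since 31 of 49 had means at or below the olfactory receptor percentile.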
